A study of Homo sapiens with 4 samples.

Results

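The CXCL chemokines described here are CXCL1, CXCL2, CXCL3, CXCL8 and CXCL16, which are 5 of the 6 genes on a list of names and 5 of the 15279 named genes of the deposited table. CXCL5, the remaining name, was not analysed here. The members were taken by gene symbol from that list, which was drawn up with earlier results of these data known, so their counts are descriptions. RNA-seq was made from cultures of MDAMB231Br, a brain metastatic breast cancer line (labelled MDA231-BR, 2 libraries), and of MDAMB231, the breast cancer line it is set against (labelled MDA231-P, 2 libraries). All cultures were grown in DMEM with FBS and PS and received no treatment that the labels name. MDAMB231 is a widely used triple-negative breast cancer line, and MDAMB231Br is its brain-seeking derivative, so each condition is a single cell line. The libraries of a line are called A and B in column order. The labels do not say that they came from separate cultures, so p-values reflect only how these libraries varied, possibly for technical reasons.

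Chemokines are small secreted proteins that attract leukocytes along a gradient through G protein-coupled receptors. CXCL1, CXCL2, CXCL3, CXCL5 and CXCL8 (interleukin 8) carry the ELR tripeptide before their CXC motif, bind the receptor CXCR2 (CXCL8 also CXCR1), attract neutrophils and promote blood vessel growth. Their genes lie in a cluster on chromosome 4 and are classic targets of the transcription factor NF-kappaB. Breast cancer cells of the basal type are known to secrete several of them. CXCL16 lies on chromosome 17 and is of another kind, a chemokine made as a transmembrane protein, which the protease ADAM10 can release from the cell surface and whose receptor is CXCR6.

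The promoters of the cluster genes are shown first because CXCL1, CXCL2 and CXCL3 moved together in the data. Whether promoter sequence had a part in this was not tested. The lines give the 140 bases before the annotated start, from RefSeq (build GRCh38.p14), taken by gene symbol because the study's own build was GRCh37. Capitals mark the motif matches described after them.
CXCL1, chr4:73869253-73869392, plus strand: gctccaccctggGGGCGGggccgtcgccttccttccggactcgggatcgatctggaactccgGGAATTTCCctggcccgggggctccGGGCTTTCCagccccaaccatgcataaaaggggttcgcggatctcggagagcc
CXCL2, chr4:74099196-74099335, minus strand: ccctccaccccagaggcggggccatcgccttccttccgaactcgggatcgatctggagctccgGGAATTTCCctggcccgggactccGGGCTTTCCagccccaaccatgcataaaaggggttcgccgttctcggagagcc
CXCL3, chr4:74038690-74038829, minus strand: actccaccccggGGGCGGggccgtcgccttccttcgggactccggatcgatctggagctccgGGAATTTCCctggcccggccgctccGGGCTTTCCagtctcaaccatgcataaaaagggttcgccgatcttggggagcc
CXCL8, chr4:73740429-73740568, plus strand: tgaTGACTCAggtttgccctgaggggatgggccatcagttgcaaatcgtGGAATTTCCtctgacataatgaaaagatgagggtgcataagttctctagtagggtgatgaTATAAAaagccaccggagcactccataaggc

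Windows were found for 5 of the 6 names, CXCL5 among them, and not for CXCL16. Both strands of the 250 bases before each start were searched for 5 short motifs. Only exact spellings counted, with N for any base, so near matches were left out. The kappaB-like motif GGNNTTTCC matched in 2 places in each of CXCL1, CXCL2 and CXCL3 and in a single place in CXCL8. Counted from the start, the matches of CXCL1 and CXCL3 lay at -78 to -70 and -53 to -45, those of CXCL2 at -77 to -69 and -53 to -45, and that of CXCL8 at -91 to -83. The CXCL5 window held a kappaB-like match at -90 to -82. Of 35116 such windows in the RefSeq table, 5.48% held at least 1 match and 0.231% held 2 or more. The AP-1 motif TGANTCA, held by 6.57% of windows, matched in CXCL8 alone among these genes, as did TATAAA, held by 10.7%. GGGCGG, which the factor SP1 binds and 42.6% of windows held, matched in CXCL1 and CXCL3, and the C/EBP-like motif TTGCNNAA, held by 9.05%, in CXCL2, upstream of the printed bases. No matches of different motifs overlapped in these genes. A match is a sequence description and does not show that a factor was bound.

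**Figure D1:**
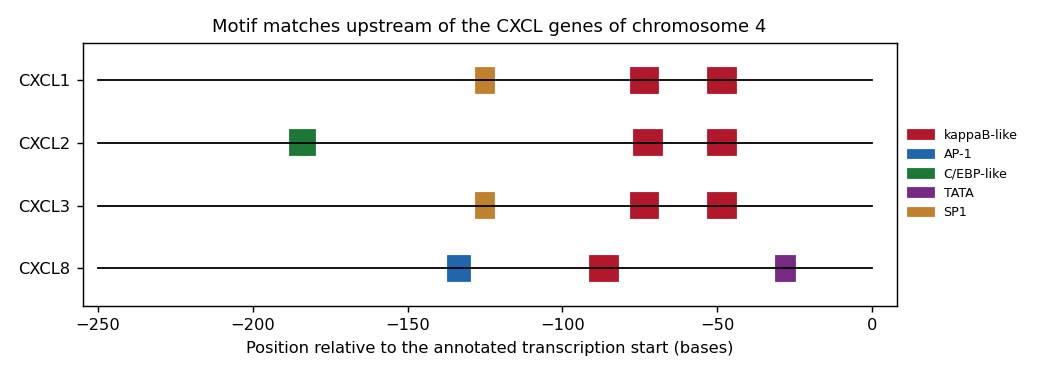
Motif matches in the 250 bases before the annotated start of CXCL1, CXCL2, CXCL3 and CXCL8. The x axis is the position in bases relative to the start, each line is a gene and each coloured box is a match. The kappaB-like matches of CXCL1, CXCL2 and CXCL3 stand at nearly the same places.

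The longest run of bases shared by all 3 of the CXCL1, CXCL2 and CXCL3 windows held the upstream kappaB-like match, in capitals, and was 23 bases long.
Shared run, chromosome 4: ctccgGGAATTTCCctggcccgg
It occurred in 4 of the 35116 windows, the fourth belonging to LOC105377275. Over the 250-base windows, CXCL1 and CXCL3 were 81.4% identical, CXCL2 and CXCL3 73.4%, and CXCL1 and CXCL2 70.1%. The CXCL8 window was 43.9% to 47.9% identical to those 3.

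The deposited values are read counts per gene divided by a size factor for each library, called normalized counts here. The libraries held 25835225 to 30771290 reads of named genes, so 1 read was worth 0.0325 to 0.0387 CPM, the usual share of reads scaled to a fixed total. Across the 14424 genes tested, the libraries of the brain metastatic line correlated at r = 0.972 on the log2(CPM + 1) scale and those of the parental line at r = 0.989, against 0.917 to 0.949 between lines, where genes are not independent replicates. VIM, CD44, AXL and MSN, genes high in mesenchymal-like breast cancer cells, summed to 8608 and 9895 CPM in the brain metastatic libraries and 4818 and 4186 CPM in the parental ones. They did not all move alike: VIM and MSN rose (log2 fold changes 1.56 and 1.80), while CD44 (0.88) and AXL (-0.19) did not pass. Of 9 leukocyte markers, the 2 analysed (S100A8 and S100A9) reached at most 0.0363 CPM in any library, and the only hormone receptor gene analysed, ESR1, reached at most 0.968 CPM. Of 5 endothelial markers 3 were analysed, and KDR, a VEGF receptor, rose (log2 fold change 3.10, adjusted p = 0.00112), while CDH5 had at most 4.80 normalized counts. PECAM1 had 193 and 218 normalized counts in MDA231-BR libraries A and B, against 70.8 and 146 in MDA231-P libraries A and B. It did not pass. None of 5 fibroblast markers and 2 of 8 neuron and glia markers were analysed, and neither of those 2 passed. They were MBP, at 88.7 to 146 CPM over all libraries, and SYT1, at 1.72 to 6.93 CPM (log2 fold changes 0.67 and 1.31). Brain metastatic library B stood apart from library A: 16 interferon-stimulated genes, listed with earlier results known, lay above the parental mean by a median of 2.91 on the log2 scale in library B, while the median in library A was -0.00032, and 15 mitochondrial pseudogenes took 0.17% of reads in library B, against 0.0483% in library A and 0.0425% to 0.0431% in the parental libraries.

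All 5 analysed CXCL genes were higher in brain metastatic cells. CXCL1, CXCL2 and CXCL3 had fold changes of 10.1 to 11.7, CXCL8, the most abundant member, had a fold change of 4.74 and varied more between libraries, and CXCL16 had 8 and 7 reads in the parental libraries. The count of 5 of 5 called higher stands beside 8.61% of all 14424 tested genes called higher by limma-trend at an adjusted p below 0.05 (5.8% were called lower). The libraries of the lines did not overlap for any of the 5. Both brain metastatic libraries lay above both parental ones, as for 31.7% of all tested genes. CXCL16 was below the minimum count of 10 in both parental libraries, so it was tested only through its brain metastatic reads. Its place among the 5 is therefore partly set by that filter. Counts of CXCL genes called higher by other tests were 5 with edgeR (background 8.96%), 5 with DESeq2 (11.3%) and 4 with limma-voom (8.36%), which did not call CXCL16. By limma-trend they were 5 without brain metastatic library A (19.8%), 5 without brain metastatic library B (11.6%), 3 when parental library A was left out (2.15%) and 4 when parental library B was (2.46%). Taking both directions, 14.4% of tested genes were called with all libraries. Log2 fold changes (brain metastatic over parental) are differences of means of log2(normalized count + 1), which understates changes of low genes, and errors of means are SD of 2 libraries.

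**Figure D2:**
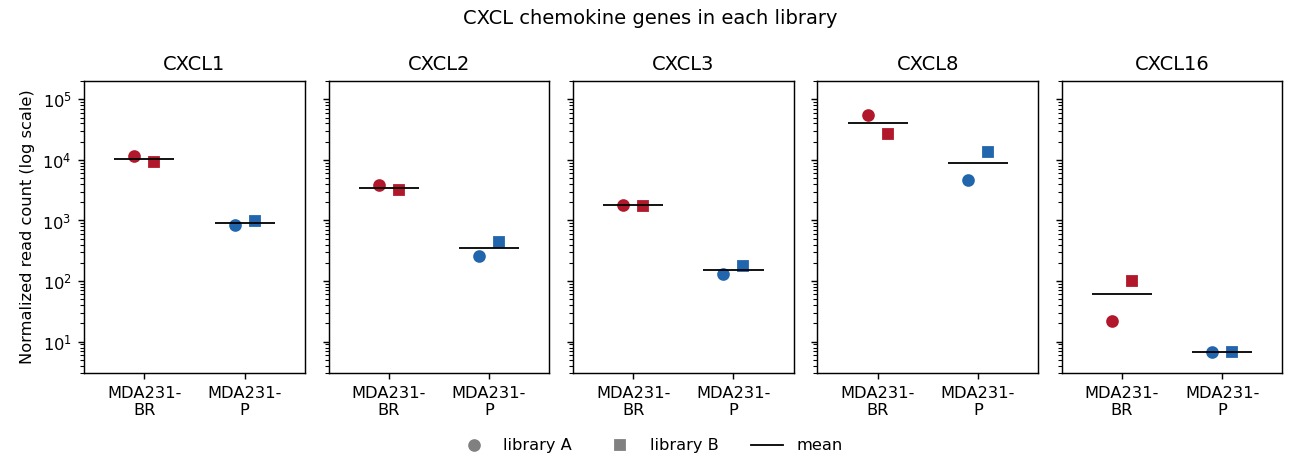
Normalized read counts (log scale, shared y axis) of the 5 CXCL genes in brain metastatic (MDA231-BR, red) and parental (MDA231-P, blue) libraries. Circles are library A, squares library B and lines the mean of 2 libraries. The lines do not overlap for any gene, and the libraries of a line lie far apart for CXCL8 in both lines and for CXCL16 in brain metastatic cells.

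CXCL1, also known as GRO-alpha and first found as a growth factor of melanoma cells, had 11501 and 9282 normalized counts in MDA231-BR libraries A and B, against 857 and 976 in MDA231-P libraries A and B. The brain metastatic libraries were close to each other, and so were the parental ones. The means were 10391 ± 1569 in brain metastatic and 916 ± 84.3 in parental cells, a log2 fold change of 3.50 ± 0.23 SE (adjusted p = 0.000194).

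CXCL2, or GRO-beta, a neutrophil attractant and mobiliser, had 3783 and 3155 normalized counts in MDA231-BR libraries A and B, against 263 and 442 in MDA231-P libraries A and B. Parental library B was the higher of its pair by 1.68 times, still far below either brain metastatic library. The log2 fold change was 3.34 ± 0.30 SE (adjusted p = 0.000688).

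CXCL3, or GRO-gamma, which acts through CXCR2 as well, had 1813 and 1724 normalized counts in MDA231-BR libraries A and B, against 129.7 and 175 in MDA231-P libraries A and B. The brain metastatic libraries differed by 1.05 times, the smallest difference between libraries of that line among the 5 genes. The log2 fold change was 3.55 ± 0.27 SE (adjusted p = 0.000402). CXCL3 ranked 101 of 14424 tested genes by log2 fold change, CXCL1 105 and CXCL2 118.

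The fold changes of these closely related genes were similar, and so were their proportions. There were 3.04 and 2.94 reads of CXCL1 for each read of CXCL2 in MDA231-BR libraries A and B, against 3.26 and 2.21 in MDA231-P libraries A and B. For each read of CXCL3 there were 6.34 and 5.38 reads of CXCL1 in MDA231-BR libraries A and B, against 6.61 and 5.59 in MDA231-P libraries A and B. Neither ratio separated the lines. In an exact permutation test over the 4 libraries (two-sided), where the smallest p possible is 0.333, p was 1 for the first ratio and 0.667 for the second (1 and 0.889 when adjusted over the 4 ratios compared). Reads could be misassigned between the 3 genes, so the annotated transcripts were compared. At a read length of 50 bases, 4.81% of distinct CXCL1 fragments, 12.5% of CXCL2 fragments and 6.01% of CXCL3 fragments also occurred in a transcript of another gene. At 100 bases the shares were 0% for CXCL1, 4.997% for CXCL2 and 3.27% for CXCL3. The study's read length is not given in the sources used here. Summed into a single feature, the 3 genes had a log2 fold change of 3.46 ± 0.24 SE (adjusted p = 0.000233).

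CXCL8, a strong neutrophil attractant that also acts on endothelial cells, had 54048 and 26227 normalized counts in MDA231-BR libraries A and B, against 4734 and 13338 in MDA231-P libraries A and B. It varied by 2.06 times between the brain metastatic libraries and by 2.82 times between the parental ones, and across the lines brain metastatic library B and parental library B lay nearest each other. The means were 40137 ± 19672 in brain metastatic and 9036 ± 6084 in parental cells, a log2 fold change of 2.24 ± 0.50 SE (adjusted p = 0.0235). Leaving out parental library A gave a log2 fold change of 1.497 and ended the call (adjusted p = 0.129), and leaving out parental library B gave 2.99 (adjusted p = 0.0102). No 50-base fragment of its transcripts occurred in another gene's transcript.

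The log2 fold change of CXCL8 was 2.24 and that of CXCL1 3.50. CXCL8 reads were 4.70 and 2.83 times those of CXCL1 in MDA231-BR libraries A and B, against 5.53 and 13.7 times in MDA231-P libraries A and B. The lines did not overlap in this ratio, which averaged 3.64 (geometric mean) in brain metastatic and 8.69 in parental cells, a log2 difference of -1.25. The exact permutation p was 0.333 (two-sided, 0.889 adjusted over the 4 ratios), the smallest this test can give with 4 libraries, so it could not have passed a threshold of 0.05.

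CXCL16, the membrane-bound chemokine, had 22.1 and 102 normalized counts in MDA231-BR libraries A and B, against 6.83 and 6.79 in MDA231-P libraries A and B. Both brain metastatic libraries lay above the parental pair, but library B was 4.61 times as high as library A. The values rest on 23 and 96 reads in MDA231-BR libraries A and B and on 8 and 7 reads in MDA231-P libraries A and B. As normalized counts, their exact 95% Poisson intervals were 14.001 to 33.1 and 82.4 to 124 in MDA231-BR libraries A and B, against 2.95 to 13.4 and 2.73 to 13.99 in MDA231-P libraries A and B. The interval of MDA231-BR library A lay just above that of MDA231-P library B, and such intervals cover counting error only. The log2 fold change was 2.64 ± 0.72 SE (adjusted p = 0.0459). Leaving out brain metastatic library B lowered it to 1.56 (adjusted p = 0.047), and leaving out library A raised it to 3.72. The call ended without parental library A (adjusted p = 0.176) or parental library B (adjusted p = 0.227). Library B was the library with high interferon-stimulated genes and mitochondrial pseudogenes; their part in the CXCL16 value was not tested. The end of CXCL16 overlaps that of MED11, a Mediator subunit gene on the opposite strand, by 85 annotated bases, and whether counting used strand is not given in the sources used here. MED11, chosen after its values were seen, had 248 and 155 normalized counts in MDA231-BR libraries A and B, against 177 and 212 in MDA231-P libraries A and B. Whether MED11 reads contributed to the CXCL16 values was not tested.

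**Figure D3:**
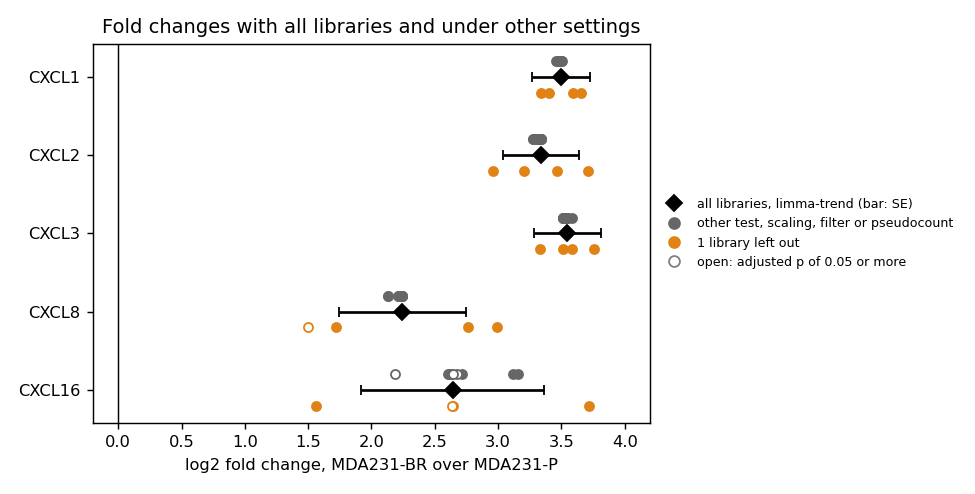
Log2 fold changes of the 5 CXCL genes, brain metastatic over parental. Black diamonds are limma-trend with all libraries (bar: SE), grey points are other tests, scalings, filters or pseudocounts, and orange points leave out 1 library; open points had an adjusted p of 0.05 or more. CXCL1, CXCL2 and CXCL3 have no open point, and CXCL16 spans 1.56 to 3.72.

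Per kilobase of the longest annotated transcript, the order of levels was the same in both lines, CXCL8 first, then CXCL1, CXCL2, CXCL3 and CXCL16. CXCL8 averaged 23541 ± 11538 normalized counts per kilobase in brain metastatic and 5299.7 ± 3568 in parental cells. CXCL1 averaged 9472 ± 1430.3 in brain metastatic and 835 ± 76.9 in parental cells, and CXCL2 averaged 2848 ± 365 in brain metastatic and 289 ± 104 in parental cells. CXCL3 averaged 1078 ± 38.3 in brain metastatic and 92.7 ± 19.4 in parental cells, and CXCL16 27.9 ± 25.3 in brain metastatic and 3.06 ± 0.0113 in parental cells. Neighbours in the order did not overlap between their libraries within a line. Among 14372 tested genes with a transcript length, CXCL8 ranked 8 by level per kilobase in brain metastatic and 225 in parental cells. The rank of CXCL1 was 68 in brain metastatic and 2387 in parental cells, and that of CXCL3 1757 in brain metastatic and 9144 in parental cells. CXCL8 was among the most abundant transcripts of the brain metastatic line, while CXCL16 stood at 12136 in brain metastatic and 14063 in parental cells.

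Together the 5 genes took 0.264% and 0.148% of all reads in MDA231-BR libraries A and B, against 0.0228% and 0.0559% in MDA231-P libraries A and B. CXCL8 supplied 75.9% and 64.8% of these reads in MDA231-BR libraries A and B, against 79.0% and 89.3% in MDA231-P libraries A and B. CXCL1 supplied 16.2% and 22.9% in MDA231-BR libraries A and B, against 14.3% and 6.53% in MDA231-P libraries A and B. The CXCL1 share was higher and the CXCL8 share lower in both brain metastatic libraries. In bulk RNA, a higher level in each cell and more cells that express a gene cannot be told apart.

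Most genes around the cluster did not pass the test, as over the whole table, where 14.4% of tested genes were called in either direction. In the gene order of the annotation, 21 tested genes that are no members were the 10 on each side of the cluster and AC093677.1, which lies between CXCL3 and CXCL2. Of these, 2 rose, 2 fell and 17 did not pass, beside the background of 8.61% higher and 5.8% lower, and their median log2 fold change was 0.14, against 0.01 over all tested genes. AC093677.1 had 129.6 and 74.2 normalized counts in MDA231-BR libraries A and B, against 99.0 and 144 in MDA231-P libraries A and B. The lines overlapped in it. AREG, which encodes the EGF receptor ligand amphiregulin and lies 3 tested genes beyond CXCL2, had 173 and 110.2 normalized counts in MDA231-BR libraries A and B, against 687 and 1758 in MDA231-P libraries A and B. It fell by 2.98 on the log2 scale (SE 0.45, adjusted p = 0.00523). EREG, the neighbouring epiregulin gene, picked with its values in view, had a log2 fold change of -1.22 (adjusted p = 0.0507). ODAPH fell as well, by 1.10 (adjusted p = 0.046). PARM1, a mucin-like membrane protein gene, and ADAMTS3, a procollagen protease gene, rose by 3.32 and 2.65 on the log2 scale (adjusted p = 0.00359 and 0.00342). AREG, PARM1 and ADAMTS3 were called whichever library was left out; the ODAPH call ended without parental library A (adjusted p = 0.22) or B (adjusted p = 0.408).

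Around CXCL16, 1 of 20 tested neighbours rose and 19 did not pass, a count no higher than the background of 8.61% brings, with a median log2 fold change of 0.13. The gene that rose was ARRB2, which encodes beta-arrestin 2, a protein that desensitises chemokine receptors and other G protein-coupled receptors. It had 1329 and 802 normalized counts in MDA231-BR libraries A and B, against 275 and 321 in MDA231-P libraries A and B (log2 fold change 1.79 ± 0.31 SE, adjusted p = 0.0086). The call ended without parental library A (adjusted p = 0.0785) or B (adjusted p = 0.0572).

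**Figure D4:**
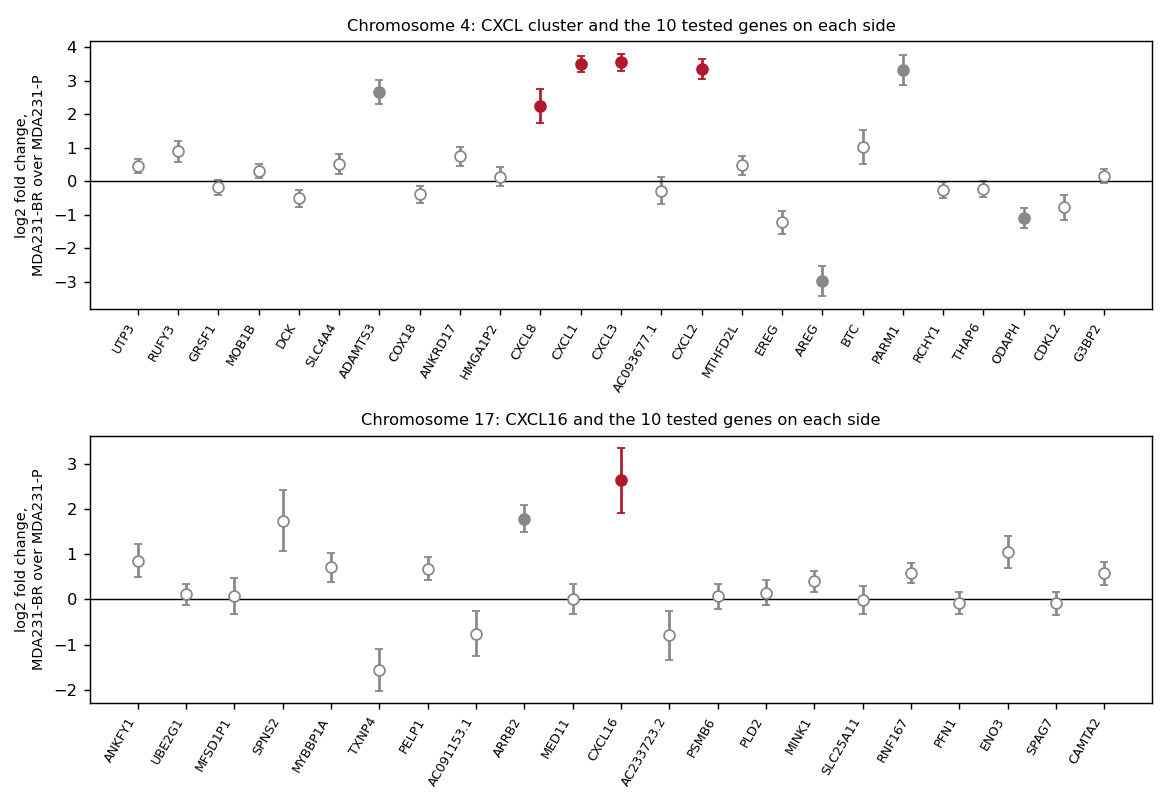
Log2 fold changes (bars: SE), brain metastatic over parental, of the CXCL genes (red) and the 10 tested genes on each side (grey), in gene order on chromosomes 4 and 17. Filled points had an adjusted p below 0.05. The 4 cluster genes stand above most neighbours, and AREG, at -2.98, lies farthest below 0.

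The genes whose profiles over the 4 libraries were most like a member's were found by Euclidean distance between log2 values centred on each gene's mean, among 10882 genes of at least 5 CPM on average. For CXCL1 the nearest was AMPH, the synaptic vesicle protein amphiphysin, at a distance of 0.138, with 1199 and 868 normalized counts in MDA231-BR libraries A and B, against 79.3 and 98.0 in MDA231-P libraries A and B. For CXCL3 the nearest was ST6GAL1, a sialyltransferase gene (0.230), and for CXCL2 it was BCL11A, a zinc finger transcription factor gene (0.244). CXCL8 was farther from any gene: its nearest were SLCO4A1-AS1 (0.384), an antisense RNA gene whose reads cannot be told from those of its partner without strand, and IL1A (0.487). For CXCL16, ZBTB37, a zinc finger gene, and TNFAIP3 were among the nearest (0.505 and 0.507). ZBTB37 had 1309.8 and 3588 normalized counts in MDA231-BR libraries A and B, against 346 and 319 in MDA231-P libraries A and B. With 4 libraries a small distance is a description of these libraries only.

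Genes of chemokine signalling and of its inputs were taken from 9 lists with 137 entries, of which 98 genes were analysed here and 94 tested. Of the 94, 21 were higher and 4 lower, beside 8.61% higher and 5.8% lower among all tested genes, with a median log2 fold change of 0.42, against 0.01 over all tested genes. Of the receptors of CXC ligands only ACKR3, a scavenging receptor of CXCL11 and CXCL12, could be analysed; it had 3.84 and 7.42 normalized counts in MDA231-BR libraries A and B, against 3.41 and 4.85 in MDA231-P libraries A and B, and was too low to be tested. CXCR1, CXCR2, CXCR6 and the 11 other CXC ligands listed were not analysed here. Of 4 tested CC and CX3C ligands, 1 rose and 3 did not pass (background 8.61%). CCL2, the monocyte attractant, had 39.4 and 136 normalized counts in MDA231-BR libraries A and B, against 3.41 and 0 in MDA231-P libraries A and B (adjusted p = 0.00862). Its reads numbered 169 in brain metastatic and 4 in parental cells, a ratio of 45.7 with a 95% counting interval of 17.5 to 169.6. Like CXCL16, CCL2 was below the filter's minimum count in both parental libraries and was tested only through its brain metastatic reads.

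Proteases that trim or release chemokines included 3 that rose and 1 that fell among 6 tested (background 8.61% higher, 5.8% lower). Most of these calls ended when either parental library was left out, as most calls over the whole table did. ADAM10, the protease named above for CXCL16, had 7853 and 9460 normalized counts in MDA231-BR libraries A and B, against 14416 and 15859 in MDA231-P libraries A and B. Both brain metastatic libraries lay below both parental ones, and ADAM10 fell by 0.81 on the log2 scale (SE 0.22, adjusted p = 0.0469). This call ended with no filter on low values (adjusted p = 0.0561) and with either parental library left out. With a library left out, the ADAM10 log2 fold change ranged from -0.94 to -0.68. MMP9, a gelatinase that trims several chemokines, rose by 3.02 on the log2 scale (adjusted p = 0.00487), the collagenase MMP1 by 2.00 (adjusted p = 0.0111) and the membrane protease MMP14 by 1.53 (adjusted p = 0.0151).

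Among cytokines and receptors that induce CXCL genes, 3 of 23 tested rose and 20 did not pass, close to the background of 8.61%, with a median log2 fold change of 0.34. IL1A, an interleukin 1 ligand, had 7659 and 4359 normalized counts in MDA231-BR libraries A and B, against 1042 and 2652 in MDA231-P libraries A and B. Like CXCL1, CXCL2, CXCL3 and CXCL8, it was higher in library A of the brain metastatic line and in library B of the parental line. It rose by 1.80 on the log2 scale (SE 0.44, adjusted p = 0.0338), and the call ended without parental library A (log2 fold change 1.12, adjusted p = 0.174). IL1B, chosen after its values were seen, had 30319.5 and 7034 normalized counts in MDA231-BR libraries A and B, against 2213 and 5043 in MDA231-P libraries A and B. It did not pass by limma-trend (adjusted p = 0.0604), limma-voom (0.0502) or DESeq2 (0.104), and passed by edgeR (0.0343). Scaled by library total, it passed by limma-trend (adjusted p = 0.0488). The innate sensors TLR2, with a log2 fold change of 2.72, and TLR3, with 2.37, rose (adjusted p = 0.00359 and 0.0106).

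The NF-kappaB list had 3 of 19 tested genes higher and 1 lower, with a median log2 fold change of 0.39. The background was 8.61% higher and 5.8% lower. All calls in this list ended when either parental library was left out, and so did most calls over the whole table. TNFAIP3, the inhibitory ubiquitin editor A20, rose by 2.22 on the log2 scale (adjusted p = 0.0251), and its normalized counts were 888 and 3072 in MDA231-BR libraries A and B, against 375 and 335 in MDA231-P libraries A and B. The subunits RELB and NFKB2 of the noncanonical pathway rose by 1.37 and 1.06 (adjusted p = 0.0101 and 0.043), and the kinase gene CHUK fell by 0.91 (adjusted p = 0.0285). RELA, the main activating subunit, had a log2 fold change of 0.30 (adjusted p = 0.413) and NFKB1 0.80 (adjusted p = 0.123), both chosen after their values were seen.

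Of AP-1, C/EBP and other factors known at CXCL promoters, 7 of 15 tested rose (background 8.61%) and 8 did not pass, with a median log2 fold change of 0.80. Most of these calls ended when either parental library was left out, as did most calls over the whole table. The 3 largest were FOSB (2.50, adjusted p = 0.013), EGR1 (1.98, adjusted p = 0.0063) and JUNB (1.93, adjusted p = 0.0022), all given as log2 fold changes. FOSB rested on few reads, 61 and 55 in MDA231-BR libraries A and B, against 9 and 12 in MDA231-P libraries A and B. JUNB had 1607 and 1513 normalized counts in MDA231-BR libraries A and B, against 406 and 410.3 in MDA231-P libraries A and B. The limma-trend call of CEBPB was close to the threshold (adjusted p = 0.0498). With edgeR 6 of the 15 were called higher (background 8.96%), and with limma-voom 6 (background 8.36%). CXCL transcripts are known to be short-lived through AU-rich elements. Of 13 tested genes that govern mRNA decay and stability, 2 rose and 11 did not pass (background 8.61%). Both calls ended when either parental library was left out, again like most calls over the whole table. Those 2 were ZFP36L1 and ZFP36, members of the tristetraprolin family that destabilises such transcripts, at log2 fold changes of 1.09 and 1.07 (adjusted p = 0.0294 and 0.0413). Chemokines are held at cell surfaces by heparan sulfate, and 2 of 14 tested proteoglycan and enzyme genes rose while 2 fell, near the background of 8.61% higher and 5.8% lower. The syndecan SDC2 rose by 1.13 on the log2 scale (adjusted p = 0.0168), and the glypican GPC4 had 116 reads in brain metastatic and 2 in parental cells, a ratio of 62.7 with a 95% counting interval of 16.97 to 524 (adjusted p = 0.00359). The glypican GPC1 fell by 1.17 and the 2-O-sulfotransferase HS2ST1 by 1.04 (adjusted p = 0.0366 and 0.0194). Of the 25 list genes called with all libraries, CCL2, GPC4, JUNB and TLR2 were those whose calls held whichever library was left out. CCL2 had 4 and 0 reads in MDA231-P libraries A and B, and GPC4 had 0 and 2. Both genes were thus below the filter's minimum count in the parental line and were tested only through their brain metastatic reads. Apart from CCL2, GPC4, JUNB and TLR2, the list calls ended without parental library A, parental library B or either. That of CEBPB also ended when brain metastatic library A was left out, and that of NFKB2 when brain metastatic library B was. Over the whole table most calls also ended without a parental library. The share of those that held in every such fit was not computed.

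**Figure D5:**
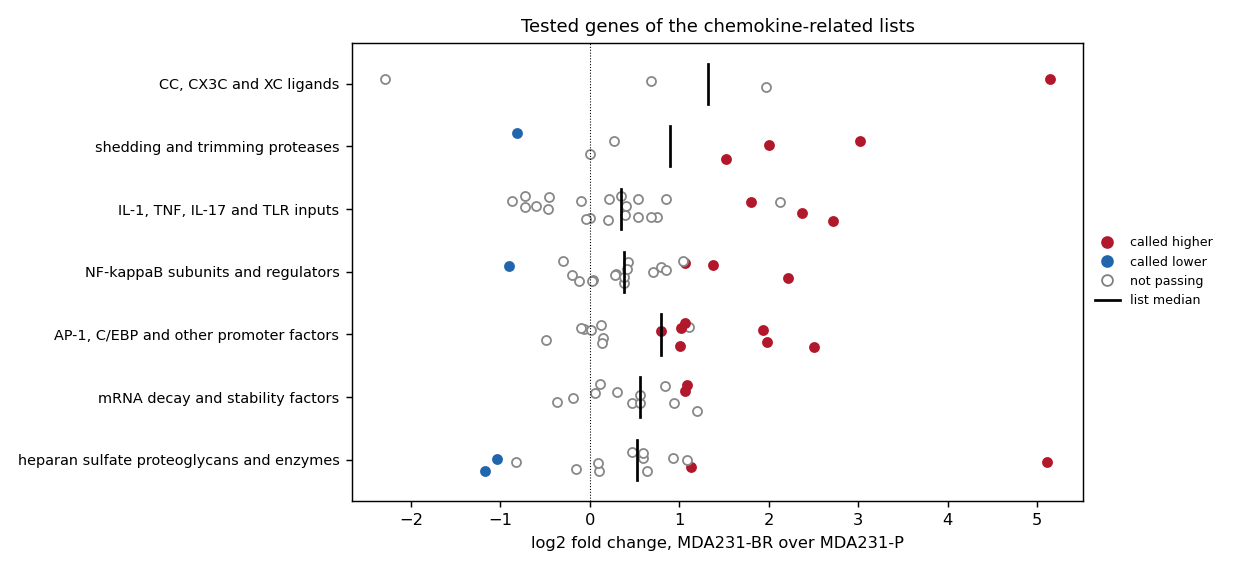
Log2 fold changes, brain metastatic over parental, of the tested genes of the chemokine-related lists. Points are genes, red called higher, blue called lower and open not passing; black bars are list medians. The AP-1 and C/EBP list has 7 of 15 tested genes in red, and the protease list 3 of 6.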

How the data were processed

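RNA was isolated with a mirVana kit, per the labels' protocols. HISAT2, featureCounts, DESeq2 and the build GRCh37 are named in the submitters' processing notes, without versions; the sources used here give no annotation, strand setting, read length or filter. The deposited table holds a signal, which its values show to be gene counts that the authors divided by a size factor per library: dividing each column by its smallest step gave whole reads for 100% of values (tolerance 0.01 reads), used where a count test was run. A header names a line, not a sample, so columns went to lines. Unnamed rows (67 of 15346, 0.031% to 0.0369% of reads) were left out. Genes were kept by filterByExpr (minimum count 10, minimum total 15; 14424 kept), and limma-trend was fitted on log2(value + 1) with Benjamini-Hochberg adjustment over all of them (threshold 0.05), with edgeR's quasi-likelihood test (2228 genes called), DESeq2 and limma-voom on the recovered reads as alternatives. The limma-trend fit was tested on simulated data. Members and lists were chosen with earlier results of these data known. Genes were named by a rule: every member, up to 3 passing genes per list and direction, passing neighbours and the 3 nearest profiles, of which the text may give fewer (1 is not reported here); CCL20 was looked at after its values were seen. Lengths and gene order came from GENCODE v29 (GRCh38). Fits used edgeR 4.0.16, DESeq2 1.42.0 and limma 3.58.1 in R 4.3.3, and tables Python 3.11.15.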

Additional observations from a re-analysis of the deposited data

How the results depend on the processing

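CXCL1, CXCL2 and CXCL3 were called under every test, scaling, filter, pseudocount and thinning tried and with each library left out, and summing them gave 3.46. The CXCL8 log2 fold change ranged from 1.497 to 2.99 with a library left out and kept its call under all alternatives except leaving out parental library A. The CXCL16 call, close to the threshold, ended with limma-voom (2.68, adjusted p = 0.0602), a pseudocount of 5 (2.19, adjusted p = 0.0518) and no filter on low values (2.64, adjusted p = 0.054), and its log2 fold change ranged from 1.56 to 3.72 with a library left out; with a minimum count of 50 it was not tested, leaving 4 CXCL genes called. It was 3.12 with edgeR (adjusted p = 0.0243) and 3.16 with DESeq2 (adjusted p = 0.00321). Leaving out a library left 3 to 5 of the CXCL genes called, with 421 to 5257 genes called over the whole table, against 2079 with all libraries. Of the list genes, 5 to 36 were then called higher and 0 to 10 lower; without parental library A, 3 were lower at an unadjusted p below 0.05, and without parental library B, 4, by limma-trend. With all libraries edgeR called 4 lower and DESeq2 6. A fit without 1 library leaves 1 residual degree of freedom and assumes that the lone library varies like the others. CEBPB (adjusted p = 0.0498) did not pass with edgeR (adjusted p = 0.0535). IL1B, EREG and CCL20 passed with edgeR and not with limma-trend on log2(value + 1) of the deposited values. Scaled by library total, they passed with limma-trend as well (adjusted p = 0.0488, 0.0359 and 0.0418). EREG and CCL20 also passed with DESeq2 and limma-voom. Why calls ended was not tested. No paired analysis was possible because the columns carry no replicate numbers. CXCL16, with 7 to 96 reads, is the member whose depth limits what can be said.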
